A study of Mus musculus with 8 samples.

Results

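The genes described here are 34 genes of cholesterol and fatty acid synthesis, of 22075 genes in an RNA-seq table of mouse lung group 2 innate lymphoid cells (ILC2s), lymphocytes that lack antigen receptors and make type 2 cytokines. They were chosen by gene symbol and fall into 18 enzymes of sterol synthesis, 6 genes of SREBP control and sterol transfer, 8 genes of fatty acid synthesis and 2 cholesterol exporters. All 34 symbols were found in the table.

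Cells make cholesterol from acetyl-CoA along the mevalonate pathway, which leads through isoprenoid units to squalene, lanosterol and finally cholesterol. The transcription factor SREBP-2, encoded by Srebf2, drives these genes when sterols in the endoplasmic reticulum run low, and SREBP-1, encoded by Srebf1, acts mainly on fatty acid synthesis. The escort protein Scap carries both precursors to the Golgi for cleavage, and Insig1 and Insig2 hold Scap back when sterols are plentiful. Dividing and activated lymphocytes use both pathways to build membranes.

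The cells came from lungs of C57BL/6 mice after a short exposure to the protease allergen papain and were expanded with IL-2 at 10 ng/ml over roughly 5 days. STAT3-KO cells (VavicreStat3fl/fl, a floxed Stat3 gene with the recombinase Vav-iCre, which is active in blood cells) and WT cells (Stat3fl/fl, floxed without Cre) were compared, so that loss of STAT3 and presence of Cre cannot be told apart. The 4 groups were STAT3-KO with IL-33, WT with IL-33, STAT3-KO control and WT control, with 2 libraries each. IL-33, an alarmin that activates ILC2s, was given at 10 ng/ml for 2 days, and the labels do not describe the control medium during those days. They do not give the age of the mice, nor say whether the 2 libraries of a group came from separate mice or cultures, so that p-values measure the spread between these samples, which may be technical.

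Values are FPKM, fragments counted per unit of exon length and of depth. Library depth, read off the steps between values, ran from 15843684 to 19905460 reads, so that a 1 kb gene with 3 reads has 0.151 to 0.189 FPKM. Stat3 measured 8.03 and 9.69 FPKM in STAT3-KO libraries with IL-33, against 49.0 and 55.3 FPKM in WT libraries with IL-33. The gene was at 15.3 and 16.0 FPKM in STAT3-KO control libraries, against 41.7 and 50.7 FPKM in WT control libraries, so that the genotypes did not overlap under either treatment. All 9 ILC2 markers (among them Gata3, Il7r and Klrg1) were at 1 FPKM or more in every library. Their summed level was 1064 to 1155 FPKM in STAT3-KO cells with IL-33, 2781 to 3019 in WT cells with IL-33, 2537 to 2583 in STAT3-KO control cells and 2490 to 2659 in WT control cells. The low marker sum thus moves with STAT3-KO cells given IL-33, and its part in the results below was not tested. Single markers did not all follow the sum. In WT cells Gata3, Rora, Il7r and Icos were also lower with IL-33 than in control. Ptprc and Il2ra were higher, and Il1rl1, Thy1 and Klrg1 overlapped. Il2ra measured 890 and 1049 FPKM in WT libraries with IL-33, against 79.1 and 109 in WT control libraries. Rora and Icos were not lower in STAT3-KO than in WT cells with IL-33, whereas all other ILC2 markers were. Il1rl1 measured 78.5 and 92.4 FPKM in STAT3-KO libraries with IL-33, against 350.1 and 369.5 in WT libraries with IL-33. In control cells Thy1 and Klrg1 were lower in STAT3-KO than in WT, Gata3, Il7r and Icos were higher, and the rest overlapped. Of 4 T cell markers, Cd3g was at 3.97 to 9.15 FPKM and the other 3 were at most at 0.332 FPKM in any library. The mast cell gene Cpa3 measured 7.49 to 7.52 FPKM in STAT3-KO cells with IL-33, 34.6 to 41.8 in WT cells with IL-33, 110.9 to 140.4 in STAT3-KO control cells and 298.9 to 325.9 in WT control cells, and its part was likewise not tested. Of 4 epithelial markers, the 3 with a row summed to 1.72 to 1.93 FPKM in STAT3-KO cells with IL-33, 5.40 to 6.14 in WT cells with IL-33, 5.47 to 8.42 in STAT3-KO control cells and 5.27 to 10.6 in WT control cells. Epcam among them lay at 0.331 and 0.441 FPKM in STAT3-KO cells with IL-33, and at 4.13 to 9.50 FPKM in the other libraries. Of 6 macrophage markers, the 3 with a row summed to 3.12 to 6.35 FPKM in STAT3-KO cells with IL-33, 5.67 to 6.55 in WT cells with IL-33, 0.595 to 2.66 in STAT3-KO control cells and 0.312 to 1.21 in WT control cells, mostly from Cd68 except in 1 WT control library, where Cd68 is listed at 0. The 4 dendritic cell markers, mostly Xcr1, summed to 4.88 to 5.56 FPKM in STAT3-KO and 5.34 to 7.28 in WT cells with IL-33. In control cells they summed to 2.30 to 3.10 in STAT3-KO and 3.07 to 3.24 in WT. Of 4 markers of stroma and endothelium, Pecam1 measured 21.3 and 26.5 FPKM in STAT3-KO and 24.7 and 23.7 in WT libraries with IL-33. It was at 18.5 and 18.9 in STAT3-KO control and 16.5 and 15.2 in WT control libraries. The part of all these lists was not tested. In such bulk samples, fewer cells of a type and less RNA per cell cannot be told apart.

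Promoters of sterol and fatty acid synthesis genes are the place where SREBP and its partner NF-Y, which binds CCAAT boxes, are known to act. RefSeq start sites (build GRCm38.p6) gave the 250 bases before the start for 26 of the 34 genes and for 27025 genes in all. The letters CCAAT, searched on both strands, were present for 14 of 15 sterol synthesis genes (93.3%), with Acat2 as the exception, for 4 of 5 genes of SREBP control and transfer, and for 1 of 5 fatty acid synthesis genes (Fasn). They were absent for the 1 exporter with a window, Abca1. They were present for 37.5% of all genes with a promoter. Here a gene with several starts counts once if any of its windows holds the letters. The E-box CACGTG, which reads the same on both strands, was present for 6 of 26 members and for 6.86% of all genes. The SRE-like letters TCACNCCAC were present for 1 member, Hmgcs1, and for 1.22% of all genes. A match describes these letters and not a bound site. The windows of Hmgcs1, the only member with the SRE-like letters, and of Sc5d, Insig1 and Fasn, whose IL-33 responses differed between genotypes as described below, are shown 5′ to 3′ on the strand of the gene, with matches in capitals. They cover chr13:119690101-119690350 (plus strand), chr9:42264301-42264550 (minus), chr5:28071162-28071362 (plus) and chr11:120824548-120824797 (minus), and each ends before the first base of the gene as annotated in GENCODE M21, which for Insig1 shortens the window to 201 bases.
Hmgcs1: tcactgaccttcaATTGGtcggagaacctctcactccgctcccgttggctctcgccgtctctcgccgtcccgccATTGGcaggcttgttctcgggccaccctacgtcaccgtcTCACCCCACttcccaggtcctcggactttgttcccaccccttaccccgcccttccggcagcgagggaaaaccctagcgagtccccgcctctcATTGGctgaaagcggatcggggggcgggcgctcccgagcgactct
Sc5d: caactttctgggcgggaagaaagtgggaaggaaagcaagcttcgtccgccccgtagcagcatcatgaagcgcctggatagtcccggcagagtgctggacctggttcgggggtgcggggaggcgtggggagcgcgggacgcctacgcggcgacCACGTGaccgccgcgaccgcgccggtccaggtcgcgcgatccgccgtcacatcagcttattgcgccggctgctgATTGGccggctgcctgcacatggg
Insig1: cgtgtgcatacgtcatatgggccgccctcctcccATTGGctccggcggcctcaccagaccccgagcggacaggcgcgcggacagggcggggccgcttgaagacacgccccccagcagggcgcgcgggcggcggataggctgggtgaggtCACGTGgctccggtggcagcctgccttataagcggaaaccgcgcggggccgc
Fasn: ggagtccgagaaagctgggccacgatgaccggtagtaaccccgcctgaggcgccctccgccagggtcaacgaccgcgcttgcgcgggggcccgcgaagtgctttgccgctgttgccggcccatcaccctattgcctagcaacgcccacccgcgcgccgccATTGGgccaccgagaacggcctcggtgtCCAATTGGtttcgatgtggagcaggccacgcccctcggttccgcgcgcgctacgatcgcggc
Capitals mark these 3 motifs, and ATTGG is the CCAAT box read on the other strand. In Hmgcs1 the SRE-like letters stand 137 to 129 bases before the start (positions -137 to -129), with ATTGG at -237, -176 and -45. In Fasn the run CCAATTGG holds CCAAT on each strand, and the 2 matches overlap.

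Of the 34 genes, 32 had at least 1 FPKM in at least 2 libraries and were tested. Fdps, which makes farnesyl diphosphate, and Acaca, the acetyl-CoA carboxylase that starts fatty acid synthesis, stayed below that level. Scd1 and Abca1 passed it through the WT libraries with IL-33 alone, so that they had to differ from the other groups, and their calls carry no weight in the counts below. Fads2 passed it through the IL-33 libraries of both genotypes alone, so that its rises with IL-33 carry no weight either. Differences are given as log2(FPKM + 1) with the standard error of limma (SE), which understates the change of genes near 0, and a call is a limma adjusted p under 0.05 over all 11877 tested genes. The median difference over all tested genes was -0.14 for IL-33 against control in WT, -0.18 for the same in STAT3-KO, 0.02 for STAT3-KO against WT in control, 0.01 between genotypes with IL-33 and -0.02 for the difference between responses. Rescaling the libraries by the median of ratios moved the first 2 of these medians to 0, and the changes below are to be read relative to these medians.

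The summed level of the 18 sterol synthesis genes lay higher with IL-33 in both genotypes, and Idi1 made up much of the difference. The sums were not tested. The sums were 317 and 337 FPKM in STAT3-KO libraries with IL-33, 446 and 433 FPKM in WT libraries with IL-33, 223 and 228 FPKM in STAT3-KO control libraries and 248 and 237 FPKM in WT control libraries. Without Idi1 the sums were 255 and 273 FPKM, 339.8 and 341 FPKM, 213 and 219 FPKM, and 234 and 224 FPKM in the same order of groups. In each case both IL-33 groups lay above both control groups, and WT with IL-33 lay highest.

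In WT cells 9 of the 17 tested sterol genes rose with IL-33 and 0 fell, where 14.5% of all tested genes rose and 21.6% fell. Without WT IL-33 library 2 the 9 calls became 5. The median difference of the 17 genes was 0.59 with all libraries. In STAT3-KO cells 7 rose and 1 fell, where 20.4% of all tested genes rose and 30.6% fell, and the median was 0.51. After median-of-ratios rescaling the split over all genes moved to 2312 higher and 1867 lower in WT (1724 and 2561 as deposited) and to 3161 higher and 2742 lower in STAT3-KO (2425 and 3638 as deposited). With the same rescaling 13 sterol genes rose and 0 fell in WT, and 10 rose and 1 fell in STAT3-KO. Mvd, Idi1, Sqle and Cyp51 rose in both genotypes.

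Idi1 (chr13:8885501-8892451 in GRCm38), the isomerase that readies isopentenyl diphosphate for chain building, had the largest response among the sterol genes. It measured 62.0 and 64.5 FPKM in STAT3-KO libraries with IL-33, 106 and 91.6 FPKM in WT libraries with IL-33, 10.7 and 8.84 FPKM in STAT3-KO control libraries and 14.2 and 12.9 FPKM in WT control libraries. The IL-33 libraries lay far above the control libraries, and the genotypes did not overlap under either treatment. IL-33 raised it by 2.58 ± 0.13 (SE) in STAT3-KO cells (limma adjusted p = 3.57e-06) and by 2.78 ± 0.13 in WT cells (limma adjusted p = 3.92e-06). It was lower in STAT3-KO than in WT cells with IL-33 by 0.63 on the log2 scale (-0.63 ± 0.13, limma adjusted p = 0.00785), a call lost without WT IL-33 library 1. The difference between the responses was -0.19 ± 0.19 and was not called. Of the 50-base windows of Idi1 transcripts, 17.7% also occur in transcripts of other genes, which leaves its absolute level uncertain.

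Early enzymes of the mevalonate pathway were mixed. Hmgcs1, the synthase that makes HMG-CoA and whose promoter window is printed above, measured 7.44 and 8.40 FPKM in STAT3-KO libraries with IL-33, 12.2 and 12.7 FPKM in WT libraries with IL-33, 8.79 and 6.96 FPKM in STAT3-KO control libraries and 7.73 and 7.41 FPKM in WT control libraries. The WT libraries with IL-33 stood above all others. The IL-33 difference was 0.01 ± 0.16 in STAT3-KO cells and 0.65 ± 0.16 in WT cells (limma adjusted p = 0.0129 in WT), and the WT call was lost without WT IL-33 library 1 or 2. With IL-33 it was lower in STAT3-KO than in WT cells (-0.59 ± 0.16, limma adjusted p = 0.0205, lost without STAT3-KO IL-33 library 1 or WT IL-33 library 1 or 2). The test of the difference between the responses gave -0.64 ± 0.22 and missed the threshold (limma adjusted p = 0.0873).

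Acat2, which joins acetyl-CoA units, averaged 36.5 ± 6.69 FPKM in STAT3-KO cells with IL-33, 35.1 ± 3.16 in WT cells with IL-33, 18.6 ± 2.90 in STAT3-KO control cells and 24.9 ± 2.07 in WT control cells (SD, n = 2 each). It rose in STAT3-KO cells (0.93 ± 0.17, limma adjusted p = 0.00212), and its difference in WT of 0.48 ± 0.17 missed the threshold (limma adjusted p = 0.0509). It shares 39.1% of its 50-base windows with Acat3, so that its level is uncertain. Mvk, mevalonate kinase, was between 4.41 and 8.14 FPKM in all libraries and was called in 0 of the 5 comparisons. Pmvk, the next kinase, rose in WT cells (0.88 ± 0.18, limma adjusted p = 0.00639, lost without WT IL-33 library 2), and its difference in STAT3-KO was 0.35 ± 0.18 (limma adjusted p = 0.138). Mvd, the decarboxylase that follows, averaged 41.0 FPKM in STAT3-KO cells with IL-33 and 35.7 in WT cells with IL-33, against 24.2 in STAT3-KO control cells and 21.1 in WT control cells. Its rises of 0.74 ± 0.15 in STAT3-KO (limma adjusted p = 0.00442) and 0.75 ± 0.15 in WT (limma adjusted p = 0.00616) were of like size, and the difference between them was -0.01 ± 0.22. Fdps was at 0.306 to 0.885 FPKM in all libraries. Its overlaps with exons of other genes, the largest with Gm43738, add up to 26.7% of its exon bases, which leaves its level uncertain as well.

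Among the enzymes that build and shape the sterol ring, Fdft1, squalene synthase, averaged 15.9 FPKM in STAT3-KO cells with IL-33, 13.1 in WT cells with IL-33, 8.30 in STAT3-KO control cells and 8.80 in WT control cells. It rose in STAT3-KO cells (0.88 ± 0.19, limma adjusted p = 0.00476), and the WT difference of 0.52 ± 0.19 missed the threshold (limma adjusted p = 0.0563). Overlaps with exons of other genes, the largest with Ctsb on the other strand, add up to 18.3% of its exon bases. The strand setting of the counting is not given in the sources used here. Sqle, squalene epoxidase, a rate-limiting enzyme of the pathway, measured 26.1 and 33.5 FPKM in STAT3-KO libraries with IL-33, 31.6 and 34.4 in WT libraries with IL-33, 16.5 and 20.2 in STAT3-KO control libraries and 18.7 and 18.3 in WT control libraries. The IL-33 libraries lay above the control libraries in both genotypes, and the genotypes overlapped. It rose by 0.67 ± 0.15 in STAT3-KO (limma adjusted p = 0.00733, lost without STAT3-KO control library 1) and by 0.80 ± 0.15 in WT (limma adjusted p = 0.00468).

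Lss, which closes squalene epoxide to lanosterol, measured 4.64 and 5.57 FPKM in STAT3-KO libraries with IL-33, 9.82 and 10.2 in WT libraries with IL-33, 5.08 and 4.61 in STAT3-KO control libraries and 7.34 and 5.86 in WT control libraries. It was lower in STAT3-KO than in WT cells with IL-33 (-0.85 ± 0.17, limma adjusted p = 0.00599). Its rise in WT (0.54 ± 0.17, limma adjusted p = 0.0371) was kept in 3 of 8 fits that each left out 1 library, those without STAT3-KO IL-33 library 1 or 2 or WT control library 1. Its exons span 10787 bases, and with the length trend removed (described below) it also rose in STAT3-KO cells (0.59, limma adjusted p = 0.027). Cyp51, the lanosterol demethylase, measured 24.5 and 27.5 FPKM in STAT3-KO libraries with IL-33, 51.2 and 43.7 in WT libraries with IL-33, 17.2 and 17.2 in STAT3-KO control libraries and 21.5 and 25.9 in WT control libraries. The WT libraries with IL-33 stood apart at the top. It rose by 0.57 ± 0.14 in STAT3-KO (limma adjusted p = 0.00974, lost without STAT3-KO control library 2) and by 0.97 ± 0.14 in WT (limma adjusted p = 0.00113). It was lower in STAT3-KO than in WT cells with IL-33 (-0.84 ± 0.14, limma adjusted p = 0.00256), whereas the difference between the responses was -0.41 ± 0.20 (limma adjusted p = 0.194).

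Of the later enzymes, Hsd17b7, a reductase of the demethylation complex, measured 4.16 and 4.99 FPKM in STAT3-KO libraries with IL-33, 11.8 and 8.16 in WT libraries with IL-33, 3.72 and 4.54 in STAT3-KO control libraries and 3.46 and 4.40 in WT control libraries. Only the WT libraries with IL-33 were high. It rose in WT (1.14 ± 0.21, limma adjusted p = 0.00436) and was lower in STAT3-KO than in WT cells with IL-33 (-0.96 ± 0.21, limma adjusted p = 0.0103, lost without STAT3-KO IL-33 library 1 or WT IL-33 library 1). The difference between the responses was -1.02 ± 0.30 and missed the threshold (limma adjusted p = 0.0555). Msmo1, the methyl oxidase of the same complex, averaged 8.79 FPKM in STAT3-KO cells with IL-33, 10.5 in WT cells with IL-33, 6.19 in STAT3-KO control cells and 6.67 in WT control cells. Its IL-33 difference was 0.44 ± 0.19 in STAT3-KO (limma adjusted p = 0.0848) and 0.59 ± 0.19 in WT (limma adjusted p = 0.043). The WT call was kept in 3 of 8 fits, those without STAT3-KO IL-33 library 1 or 2 or STAT3-KO control library 1, and with the length trend removed both genotypes were called (0.77 in STAT3-KO and 0.74 in WT). Nsdhl, the dehydrogenase of that complex, averaged 6.45 FPKM in STAT3-KO cells with IL-33, 5.66 in WT cells with IL-33, 3.82 in STAT3-KO control cells and 3.71 in WT control cells. Its IL-33 difference was 0.63 ± 0.20 in STAT3-KO (limma adjusted p = 0.0278, lost without STAT3-KO IL-33 library 1 or STAT3-KO control library 2) and 0.50 ± 0.20 in WT (limma adjusted p = 0.0814, called at 0.62 with the length trend removed). The responses of the genotypes differed by -0.15 ± 0.27 for Msmo1 and by 0.13 ± 0.28 for Nsdhl, neither of them called. Tm7sf2 (0.769 to 4.83 FPKM), a sterol reductase, Ebp (11.1 to 17.3 FPKM), a sterol isomerase, and Dhcr7 (8.31 to 11.5 FPKM), the reductase of the last step in the Kandutsch-Russell branch, were called in 0 of the 5 comparisons.

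Sc5d (chr9:42251595-42264256 in GRCm38), the desaturase that acts near the end of the pathway, followed another pattern. It measured 25.4 and 28.4 FPKM in STAT3-KO libraries with IL-33, against 57.5 and 58.3 in WT libraries with IL-33, 52.4 and 54.5 in STAT3-KO control libraries and 54.8 and 52.9 in WT control libraries. The 2 STAT3-KO libraries with IL-33 lay below all 6 others, which lay close together. Sc5d fell in STAT3-KO cells (-0.97 ± 0.10, limma adjusted p = 0.000151), with a difference of 0.10 ± 0.10 in WT (limma adjusted p = 0.462). The responses differed by -1.07 ± 0.15 (limma adjusted p = 0.00335).

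Between genotypes, 0 of the 17 tested sterol genes were called in control cells, where 0.253% of all tested genes were higher in STAT3-KO and 0.21% lower, and their median difference was -0.06. At an unadjusted limma p under 0.05, 3 were lower in STAT3-KO control cells (Acat2, Idi1 and Cyp51) and 0 higher, and with the 4 control libraries fitted alone limma called 0 of all tested genes. With IL-33, 0 were higher and 7 lower in STAT3-KO than in WT cells (Hmgcs1, Pmvk, Idi1, Lss, Cyp51, Hsd17b7 and Sc5d), where 16.3% of all tested genes were higher and 16.4% lower. The 7 calls became 4 without STAT3-KO IL-33 library 1 or WT IL-33 library 1. The median of the 17 genes was -0.30. The call of Pmvk (-0.57 ± 0.18, limma adjusted p = 0.0414) was kept in 3 of 8 fits, those without WT IL-33 library 1 or WT control library 1 or 2. The responses of the genotypes differed for 1 sterol gene, Sc5d, which was lower, and for 0 in the other direction, where 6.72% of all tested genes were higher and 8.43% lower by this test. The count of sterol genes is thus near or below the background for the difference between responses, with a median of -0.19.

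**Figure D1:**
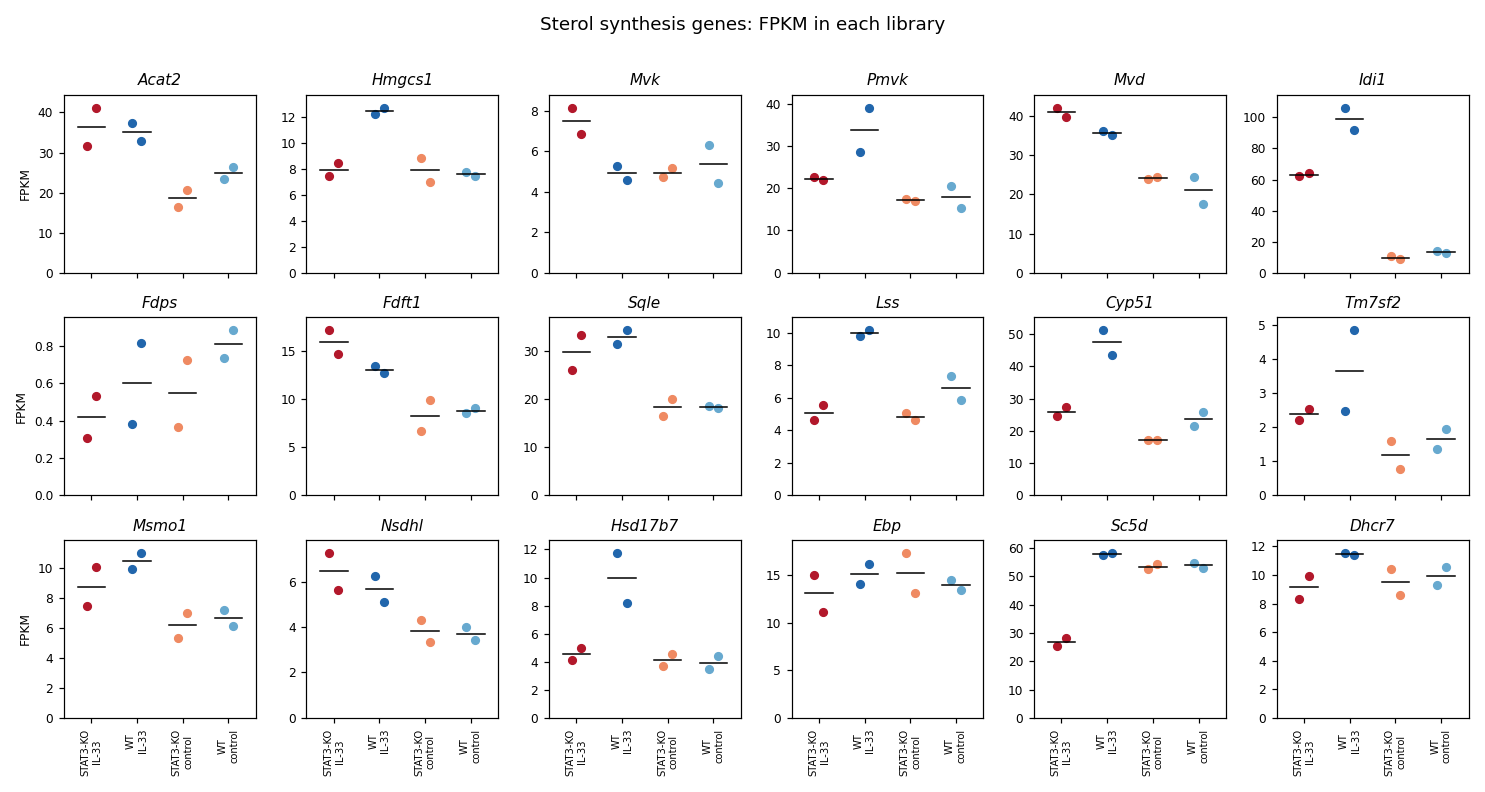
FPKM of the 18 sterol synthesis genes in each library, with points for libraries, lines for means of 2 and a separate linear axis from 0 in each panel. Idi1 stands at 62.0 and 64.5 FPKM in STAT3-KO and at 106 and 91.6 FPKM in WT libraries with IL-33, above all control libraries, and Sc5d is low in both STAT3-KO libraries given IL-33.

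Of the 6 genes of SREBP control and sterol transfer, 3 rose and 0 fell with IL-33 in WT cells, and 2 rose and 2 fell in STAT3-KO cells. Over all tested genes 14.5% rose and 21.6% fell in WT, and 20.4% rose and 30.6% fell in STAT3-KO, so that the counts in STAT3-KO lie near the background. In control cells limma called 0 between genotypes, also at an unadjusted p under 0.05, and with IL-33 0 were higher and 2 lower in STAT3-KO (16.3% and 16.4% over all tested genes). The medians were 0.24 for IL-33 in WT, 0.01 for IL-33 in STAT3-KO, -0.05 between genotypes in control and -0.28 between genotypes with IL-33.

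Insig1 (chr5:28071363-28078662 in GRCm38), the sterol-sensing anchor of Scap and itself a well-known SREBP target, went in opposite directions in the genotypes. It measured 20.8 and 18.7 FPKM in STAT3-KO libraries with IL-33, 68.8 and 70.0 in WT libraries with IL-33, 29.3 and 28.8 in STAT3-KO control libraries and 24.9 and 25.6 in WT control libraries. No 2 groups overlapped, and replicates lay close together. Insig1 fell by 0.54 on the log2 scale in STAT3-KO cells (-0.54 ± 0.11, limma adjusted p = 0.00374) and rose by 1.42 ± 0.11 in WT cells (limma adjusted p = 3.86e-05). With IL-33, STAT3-KO cells had the lower level (-1.77 ± 0.11, limma adjusted p = 2.37e-05). Its IL-33 responses in the genotypes differed by -1.96 ± 0.15 (limma adjusted p = 0.000327), the smallest p of this test among the 32 genes.

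Srebf2 (SREBP-2) measured 32.9 and 36.4 FPKM in STAT3-KO libraries with IL-33, 66.0 and 74.5 in WT libraries with IL-33, 59.3 and 67.2 in STAT3-KO control libraries and 60.8 and 78.7 in WT control libraries. As with Sc5d, the STAT3-KO libraries with IL-33 lay below all others, which overlapped. It fell in STAT3-KO cells (-0.85 ± 0.15, limma adjusted p = 0.00178) and differed by 0.02 ± 0.15 in WT cells (limma adjusted p = 0.93). Between genotypes with IL-33, it was lower in STAT3-KO (-0.998 ± 0.146, limma adjusted p = 0.00143). The responses differed by -0.87 ± 0.21 (limma adjusted p = 0.0262). That last call was kept in 2 of 8 fits, those without STAT3-KO IL-33 library 2 or WT control library 2, and the fall in STAT3-KO was -0.47 with the length trend removed (limma adjusted p = 0.0135).

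Srebf1 (SREBP-1) averaged 11.8 ± 0.669 FPKM in STAT3-KO cells with IL-33, 14.2 ± 2.91 in WT cells with IL-33, 7.35 ± 0.963 in STAT3-KO control cells and 8.62 ± 1.10 in WT control cells (SD, n = 2 each). It rose in both genotypes, by 0.62 ± 0.18 in STAT3-KO (limma adjusted p = 0.0207) and by 0.65 ± 0.18 in WT (limma adjusted p = 0.0225). The STAT3-KO call was lost without STAT3-KO IL-33 library 1 or 2 or STAT3-KO control library 1, and the WT call without WT IL-33 library 2 or WT control library 1. Insig2, the less sterol-responsive anchor, averaged 12.4 FPKM in STAT3-KO cells with IL-33 and 10.9 in WT cells with IL-33, against 7.60 in STAT3-KO control cells and 7.67 in WT control cells. Its rise was called in STAT3-KO (0.64 ± 0.16, limma adjusted p = 0.00921, lost without STAT3-KO IL-33 library 2 or STAT3-KO control library 1) and in WT (0.46 ± 0.16, limma adjusted p = 0.0485, kept in 2 of 8 fits, those without STAT3-KO IL-33 library 1 or 2). Scap was at 2.61 to 5.10 FPKM and Stard4, a carrier of cholesterol between membranes, at 12.6 to 19.8 FPKM. Neither was called in any of the 5 comparisons, and with the length trend removed Scap rose in STAT3-KO cells (0.79, limma adjusted p = 0.00934) and was higher in STAT3-KO than in WT cells with IL-33 (0.71, limma adjusted p = 0.0212).

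**Figure D2:**
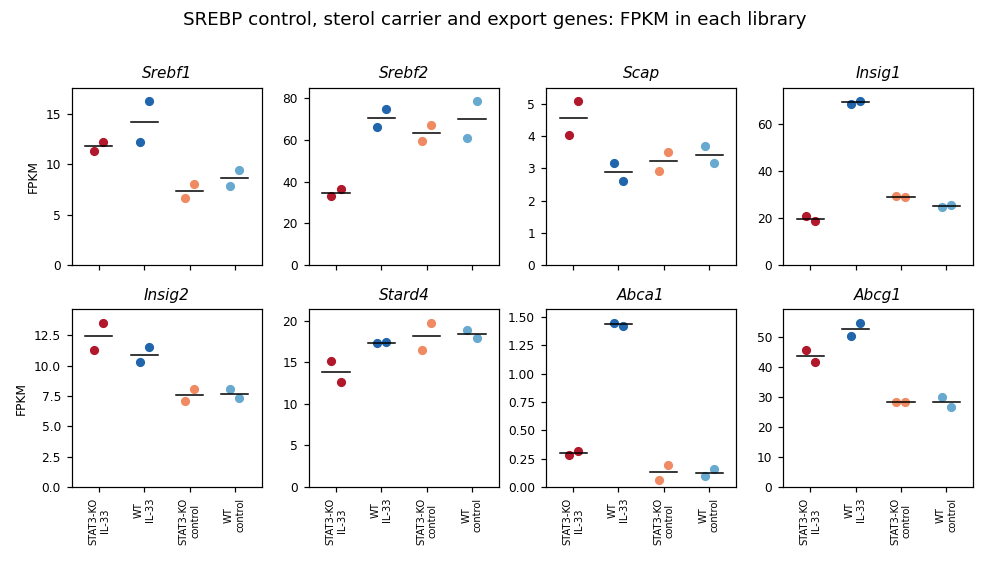
FPKM of 6 genes of SREBP control and sterol transfer and of the 2 exporters in each library, with points for libraries, lines for means of 2 and a separate linear axis from 0 in each panel. Insig1 is at 68.8 and 70.0 FPKM in WT libraries with IL-33 and at or below 29.3 FPKM in the other 6, and Srebf2 is low in both STAT3-KO libraries given IL-33.

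The fatty acid genes differed more between genotypes. Of the 7 tested, 4 rose and 0 fell with IL-33 in WT cells (Fasn, Scd1, Scd2 and Fads2), against 14.5% and 21.6% of all tested genes. In STAT3-KO cells 2 rose and 3 fell, against 20.4% and 30.6% of all tested genes, so that these counts lie near the background. Those 5 calls became 2 without STAT3-KO IL-33 library 1 or STAT3-KO control library 1 or 2. With IL-33, 0 were higher and 6 lower in STAT3-KO than in WT cells (16.3% and 16.4% over all tested genes), and in control cells limma called 0, also at an unadjusted p under 0.05. The responses of the genotypes differed for 6 of the 7, all of them lower in STAT3-KO, against 8.43% of all tested genes. That count was 2 without STAT3-KO IL-33 library 1, WT IL-33 library 1 or 2 or STAT3-KO control library 1, and 3 without STAT3-KO control library 2, with a pseudocount of 0.1 or without the filter on low values. Leaving aside Scd1, these counts are 3 rises in WT, 5 genes lower in STAT3-KO with IL-33 and 5 with differing responses. These last 5 include Acly and Fads2, whose calls were lost with a pseudocount of 0.1 (limma adjusted p = 0.0586 and 0.359). Fads2 passed the filter through the IL-33 libraries alone, so that its rises carry no weight either. The difference between those rises depends on the pseudocount. Without the rises of Fads2, the rises left are those of Fasn and Scd2 in WT and of Elovl6 in STAT3-KO. The medians were 0.85 for IL-33 in WT, 0.14 for IL-33 in STAT3-KO (0.09 with the control libraries of Scd1 set to the floor of 3 reads), -0.14 between genotypes in control, -1.34 between genotypes with IL-33 and -1.33 for the difference between responses. All these medians include Scd1. The STAT3-KO medians of 0.14 and 0.09 are the values of Scd1 itself, so that they do not describe the other genes. The summed level of the 8 genes was 48.9 and 70.0 FPKM in STAT3-KO libraries with IL-33, 171 and 191 in WT libraries with IL-33, 97.7 and 89.0 in STAT3-KO control libraries and 90.8 and 114 in WT control libraries.

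Acly, which cleaves citrate into the acetyl-CoA that feeds both arms, was the most abundant of the fatty acid genes in these values per length. It measured 30.4 and 49.8 FPKM in STAT3-KO libraries with IL-33, 84.2 and 101 in WT libraries with IL-33, 71.5 and 65.9 in STAT3-KO control libraries and 67.3 and 84.8 in WT control libraries. The STAT3-KO libraries with IL-33 lay below all others but differed from each other by more than any other pair of replicates. Acly fell in STAT3-KO cells (-0.80 ± 0.22, limma adjusted p = 0.0153, lost without STAT3-KO IL-33 library 1 or STAT3-KO control library 1 or 2), with a difference of 0.28 ± 0.22 in WT (limma adjusted p = 0.338). With IL-33, STAT3-KO cells had the lower level (-1.22 ± 0.22, limma adjusted p = 0.00367). Its IL-33 responses in the genotypes differed by -1.08 ± 0.31 (limma adjusted p = 0.0489), a call kept in 2 of 8 fits, those without STAT3-KO IL-33 library 2 or WT control library 2. With a pseudocount of 0.1 that difference was -1.10 and missed the threshold (limma adjusted p = 0.0586).

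Fasn (chr11:120805846-120824547 in GRCm38), the fatty acid synthase, measured 5.65 and 6.75 FPKM in STAT3-KO libraries with IL-33, 16.2 and 18.1 in WT libraries with IL-33, 8.58 and 9.53 in STAT3-KO control libraries and 10.0 and 8.22 in WT control libraries. The IL-33 groups lay on opposite sides of the control libraries, whose genotypes overlapped. It rose in WT (0.85 ± 0.16, limma adjusted p = 0.00447), was lower in STAT3-KO than in WT cells with IL-33 (-1.34 ± 0.16, limma adjusted p = 0.000563), and its responses differed by -1.33 ± 0.23 (limma adjusted p = 0.00785). The fall in STAT3-KO cells (-0.48 ± 0.16, limma adjusted p = 0.034) was not stable. Its exons span 10947 bases, and with the length trend removed the difference was 0.05 (limma adjusted p = 0.837), while the difference between the responses stayed past the threshold at -0.999 (limma adjusted p = 0.0265). The fall was also lost without STAT3-KO IL-33 library 1, WT IL-33 library 1 or 2 or STAT3-KO control library 1 or 2. Acaca, which supplies the malonyl-CoA for Fasn, was at 0.384 and 0.208 FPKM in STAT3-KO libraries with IL-33, 1.03 and 0.878 in WT libraries with IL-33, 0.397 and 0.810 in STAT3-KO control libraries and 0.422 and 0.540 in WT control libraries, and was not tested. It shares 30.4% of its 50-base windows with other genes.

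The desaturases insert double bonds into fatty acid chains. Scd2, which makes monounsaturated fatty acids, measured 6.44 and 6.68 FPKM in STAT3-KO libraries with IL-33, 47.7 and 44.9 in WT libraries with IL-33, 5.57 and 3.13 in STAT3-KO control libraries and 1.39 and 6.11 in WT control libraries. Only the WT libraries with IL-33 stood apart, and the WT control libraries differed from each other by more than 4 FPKM. Scd2 rose in WT (3.52 ± 0.44, limma adjusted p = 0.000542), with a difference of 0.54 ± 0.44 in STAT3-KO (limma adjusted p = 0.331). Between genotypes with IL-33, it was lower in STAT3-KO (-2.65 ± 0.44, limma adjusted p = 0.00254). The responses differed by -2.98 ± 0.62 (limma adjusted p = 0.0158), a call lost when any 1 of the 4 IL-33 libraries or STAT3-KO control library 1 was left out, with values from -3.77 to -2.20 in the fits without 1 library.

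Scd1, its relative, was low throughout. It was at 0.0888 and 0.116 FPKM in STAT3-KO libraries with IL-33, at 1.38 and 1.17 in WT libraries with IL-33, and listed at 0 in all 4 control libraries. With IL-33, STAT3-KO cells had the lower level (-1.04 ± 0.21, limma adjusted p = 0.00641). Its rise in WT (1.18 ± 0.21, limma adjusted p = 0.00332) depends on the pseudocount and is no bound. The test of the difference between responses (-1.04 ± 0.30, limma adjusted p = 0.049) missed the threshold whichever of the 8 libraries was left out. Scd1 shares 4.56% of its 50-base windows with other genes, mainly Scd3, and Scd2 shares 3.97%, mainly with Scd1.

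Fads2 and Fads1 are neighbouring genes that encode the delta-6 and delta-5 desaturases of polyunsaturated fatty acids, which act in turn. Fads2 measured 2.03 and 2.61 FPKM in STAT3-KO libraries with IL-33, 10.4 and 16.5 in WT libraries with IL-33, 0.118 and 0.0827 in STAT3-KO control libraries and 0.632 and 0.460 in WT control libraries. No 2 groups overlapped. It rose in STAT3-KO (1.59 ± 0.24, limma adjusted p = 0.000967) and in WT (3.19 ± 0.24, limma adjusted p = 4.01e-05). Between genotypes with IL-33, it was lower in STAT3-KO (-2.09 ± 0.24, limma adjusted p = 0.000478). Its IL-33 responses in the genotypes differed by -1.60 ± 0.34 (limma adjusted p = 0.0178), a value that depends on the pseudocount at these low control levels. With a pseudocount of 0.1 it was -0.77 and missed the threshold (limma adjusted p = 0.359). It also missed it without STAT3-KO IL-33 library 1, WT IL-33 library 2 or STAT3-KO control library 1 or 2.

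Fads1 measured 1.70 and 2.08 FPKM in STAT3-KO libraries with IL-33, 7.98 and 7.15 in WT libraries with IL-33, 10.8 and 8.84 in STAT3-KO control libraries and 10.0 and 12.4 in WT control libraries. In both genotypes the IL-33 libraries lay below the control libraries without overlap, and the STAT3-KO libraries with IL-33 lay below all others. It fell in STAT3-KO (-1.90 ± 0.18, limma adjusted p = 7.37e-05), and its difference of -0.51 ± 0.18 in WT missed the threshold (limma adjusted p = 0.0557). With IL-33, STAT3-KO cells had the lower level (-1.57 ± 0.18, limma adjusted p = 0.000436). The responses differed by -1.39 ± 0.25 (limma adjusted p = 0.00982, lost without WT IL-33 library 1). Elovl6, which lengthens the products of Fasn, measured 2.21 and 1.69 FPKM in STAT3-KO libraries with IL-33, 2.48 and 1.56 in WT libraries with IL-33, 0.758 and 0.756 in STAT3-KO control libraries and 1.02 and 1.09 in WT control libraries. It was the tested fatty acid gene with no difference called between genotypes. It rose in STAT3-KO (0.74 ± 0.22, limma adjusted p = 0.0233, lost without STAT3-KO IL-33 library 1 or STAT3-KO control library 1 or 2), and its difference of 0.54 ± 0.22 in WT missed the threshold (limma adjusted p = 0.0928).

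**Figure D3:**
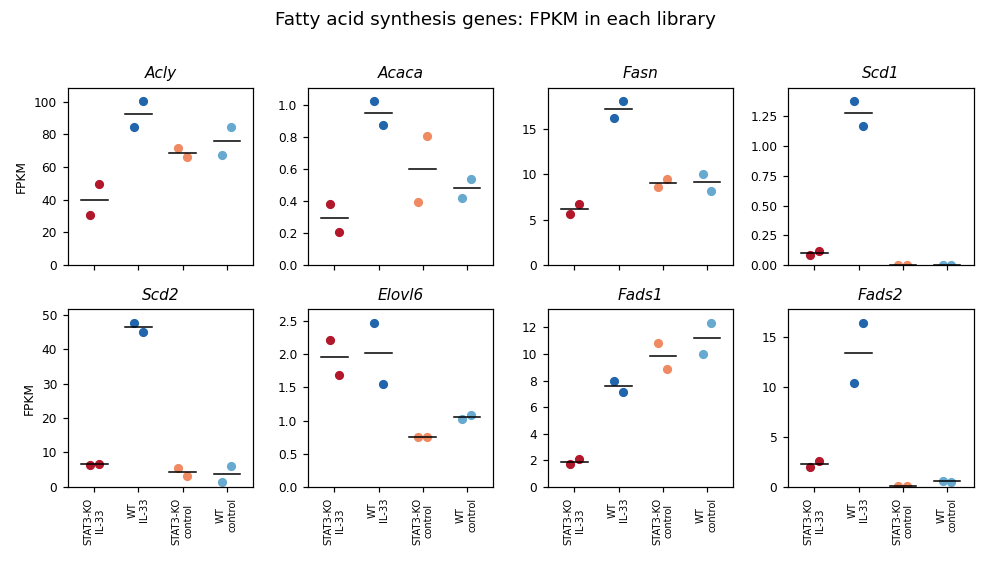
FPKM of the 8 fatty acid synthesis genes in each library, with points for libraries, lines for means of 2 and a separate linear axis from 0 in each panel. Scd2 stands at 47.7 and 44.9 FPKM in WT libraries with IL-33 and at or below 6.68 FPKM in the other 6, and Acly, Fasn and Fads1 are lowest in both STAT3-KO libraries given IL-33.

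The plot of the IL-33 responses in both genotypes shows the arms side by side, and each axis has control libraries of its own. Of the 17 tested sterol genes 4 lie above the line of equal responses, and Idi1 lies just below it, at 2.58 in STAT3-KO and 2.78 in WT. Of the 7 tested fatty acid genes 1, Elovl6, lies above it.

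**Figure D4:**
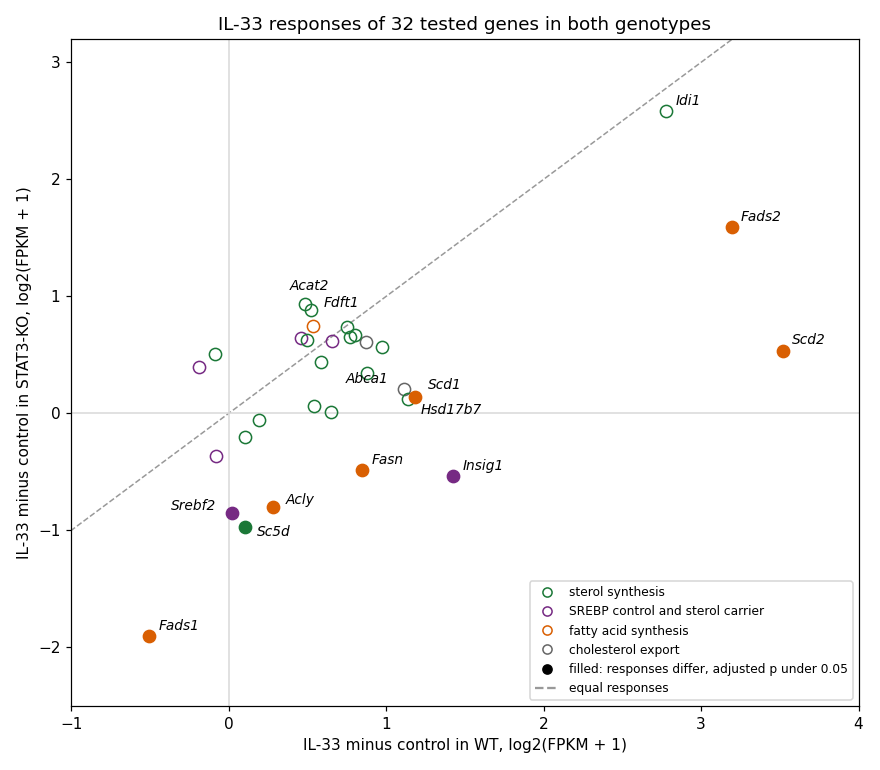
IL-33 minus control in STAT3-KO cells (vertical axis) and in WT cells (horizontal axis), both as differences of log2(FPKM + 1), for 32 tested genes coloured by group. Filled points are the 9 genes whose responses differed at a limma adjusted p under 0.05, and all 9 lie below the dashed line of equal responses.

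Of the 2 cholesterol exporters, Abca1 passed the filter through the WT libraries with IL-33 alone, which leaves Abcg1 as the 1 whose calls count. Abcg1, which moves cholesterol to lipoproteins, measured 45.6 and 41.5 FPKM in STAT3-KO libraries with IL-33, 50.2 and 54.7 in WT libraries with IL-33, 28.1 and 28.2 in STAT3-KO control libraries and 30.05 and 26.5 in WT control libraries. It rose by 0.61 ± 0.12 in STAT3-KO (limma adjusted p = 0.00296) and by 0.87 ± 0.12 in WT (limma adjusted p = 0.000793), and between genotypes it was not called. Abca1, which loads cholesterol onto apolipoprotein A-I, was low, at 0.284 and 0.320 FPKM in STAT3-KO libraries with IL-33, 1.45 and 1.42 in WT libraries with IL-33, 0.0631 and 0.192 in STAT3-KO control libraries and 0.0920 and 0.158 in WT control libraries. Its WT libraries with IL-33 stood above all others. It rose in WT (1.11 ± 0.21, limma adjusted p = 0.00428) and was lower in STAT3-KO than in WT cells with IL-33 (-0.90 ± 0.21, limma adjusted p = 0.0119). The difference between the responses was -0.90 ± 0.30 and missed the threshold (limma adjusted p = 0.0729).

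The IL-33 response of STAT3-KO cells moved with the length of the exons. Over all tested genes its median was 0.003 among the 2967 shortest genes (up to 2065 bases) and -0.467 among the 2967 longest (6095 bases and more), where 45% of genes fell. In WT cells the same medians were -0.07 and -0.18. The cause was not tested. With a smooth trend on exon length removed from each library, a step chosen after seeing the data, 13 sterol genes rose and 0 fell with IL-33 in WT cells, and 10 rose and 1 fell in STAT3-KO cells. Rises grew over all genes too. The same step gave 2361 rises and 1929 falls over all genes in WT (1724 and 2561 as deposited). In STAT3-KO it gave 2958 rises and 2619 falls (2425 and 3638 as deposited). The count of sterol genes lower in STAT3-KO with IL-33 stayed at 7 and that of fatty acid genes at 6 (1964 over all genes, 1944 as deposited). Over all genes with this step, the responses of 853 were higher and of 987 lower in STAT3-KO. The responses differed for 1 sterol and 5 fatty acid genes, with Scd1 lost (-0.99, limma adjusted p = 0.06). For the others the difference between responses was -2.11 for Insig1, -0.64 for Srebf2, -1.02 for Sc5d, -0.99 for Acly, -0.999 for Fasn, -2.88 for Scd2, -1.35 for Fads1 and -1.73 for Fads2.

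**Figure D5:**
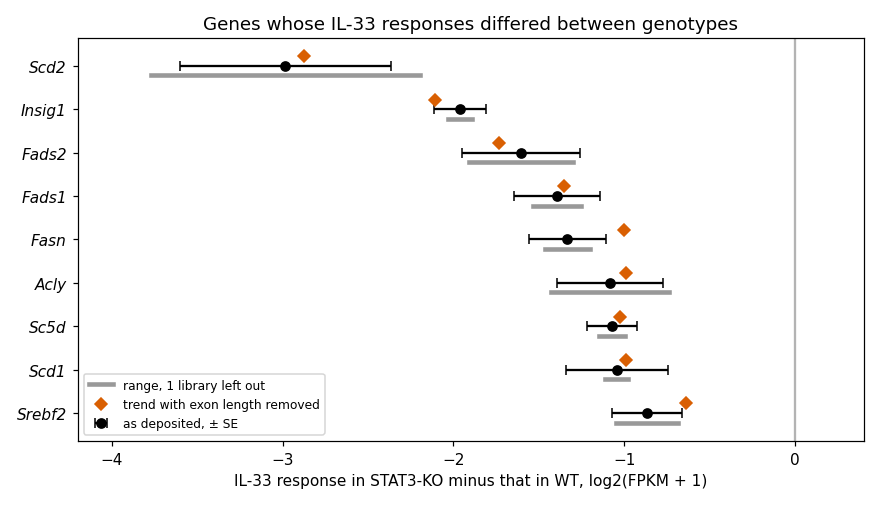
IL-33 response in STAT3-KO minus that in WT cells, in log2(FPKM + 1), for the 9 genes called, with black points and bars for the value ± SE, grey bars for the range over 8 fits without 1 library and diamonds for the value with the exon length trend removed. All values lie below 0, from -2.98 for Scd2 to -0.87 for Srebf2 among the black points.

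Other genes of the sterol and isoprenoid pathway, 20 in number with 17 tested, had 4 rises and 0 falls with IL-33 in WT cells and 4 rises and 4 falls in STAT3-KO cells. These counts lie near the shares over all tested genes (14.5% higher and 21.6% lower in WT, 20.4% and 30.6% in STAT3-KO), apart from the 0 falls in WT. With IL-33, 1 was higher and 3 lower in STAT3-KO than in WT cells (16.3% and 16.4% over all tested genes). In control cells limma called 0 (1 higher and 1 lower at an unadjusted p under 0.05). The responses differed for 3, of which 1 was higher and 2 were lower in STAT3-KO (6.72% and 8.43% over all tested genes). Soat1, which esterifies cholesterol for storage, averaged 3.25 ± 0.909 FPKM in STAT3-KO cells with IL-33, 15.1 ± 0.506 in WT cells with IL-33, 6.55 ± 1.61 in STAT3-KO control cells and 7.52 ± 1.28 in WT control cells (SD, n = 2 each). Its responses differed by -1.76 ± 0.31 (limma adjusted p = 0.00874). Osbpl3, an oxysterol-binding protein relative, averaged 48.9, 89.4, 58.8 and 51.4 FPKM in the same order of groups, and its responses differed by -1.05 ± 0.15 (limma adjusted p = 0.00402). Tmem97, a sterol-regulated membrane protein, rose in STAT3-KO (0.92 ± 0.11, limma adjusted p = 0.000257) and in WT (1.02 ± 0.11, limma adjusted p = 0.000242). Scarb1, a lipoprotein receptor, rose in STAT3-KO (1.03 ± 0.19, limma adjusted p = 0.00252) and in WT (0.72 ± 0.19, limma adjusted p = 0.0186).

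Among 30 further genes of fatty acid metabolism and NADPH supply, 26 were tested. With IL-33, 9 rose and 4 fell in WT cells, and 12 rose and 3 fell in STAT3-KO cells. The shares over all tested genes were 14.5% higher and 21.6% lower in WT, and 20.4% and 30.6% in STAT3-KO. Between genotypes, 5 were higher and 1 lower in STAT3-KO cells with IL-33 (16.3% and 16.4% over all tested genes), and limma called 0 in control cells (3 higher and 1 lower at an unadjusted p under 0.05). The responses differed for 3, of which 1 was higher and 2 lower in STAT3-KO (6.72% and 8.43% over all tested genes). Acss2, which makes acetyl-CoA from acetate and thus supplies the same precursor as Acly, averaged 22.7 ± 1.07 FPKM in STAT3-KO cells with IL-33, 2.01 ± 0.401 in WT cells with IL-33, 5.74 ± 0.275 in STAT3-KO control cells and 3.27 ± 0.286 in WT control cells (SD, n = 2 each). Its responses differed by 2.32 ± 0.24 (limma adjusted p = 0.00101), opposite in direction to Acly. Acsl4, which activates arachidonic acid, averaged 17.6, 72.8, 13.7 and 11.6 FPKM in the same order of groups, and its responses differed by -2.32 ± 0.44 (limma adjusted p = 0.0119). Elovl5, an elongase of polyunsaturated fatty acids, averaged 81.3 FPKM in STAT3-KO and 92.7 in WT cells with IL-33, against 205 in STAT3-KO control and 159.8 in WT control cells, and its responses differed by -0.54 ± 0.15 (limma adjusted p = 0.0478). Mecr, a reductase of mitochondrial fatty acid synthesis, was higher in STAT3-KO than in WT cells with IL-33 (0.81 ± 0.15, limma adjusted p = 0.00407).

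Fabp5, a fatty acid binding protein, Hacd3, a dehydratase of fatty acid elongation, and Me1, a source of NADPH for fatty acid synthesis, were high with IL-33 in both genotypes. Fabp5 averaged 57.5 FPKM in STAT3-KO and 71.3 in WT cells with IL-33, against 14.0 in STAT3-KO control and 13.9 in WT control cells. It rose by 1.95 ± 0.17 in STAT3-KO (limma adjusted p = 5.29e-05) and by 2.28 ± 0.17 in WT (limma adjusted p = 3.76e-05). Hacd3 rose by 1.31 ± 0.11 in STAT3-KO (limma adjusted p = 4.11e-05) and by 1.12 ± 0.11 in WT (limma adjusted p = 0.000154). Me1 averaged 9.11 FPKM in STAT3-KO and 12.5 in WT cells with IL-33, against 0.339 in STAT3-KO control and 0.375 in WT control cells, and rose by 2.89 ± 0.28 in STAT3-KO (limma adjusted p = 8.38e-05) and by 3.33 ± 0.28 in WT (limma adjusted p = 6.56e-05). Like Fads2, Me1 passed the filter through the IL-33 libraries alone, so that its rises carry no weight in a count.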

How the data were processed

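The deposited table gives FPKM values of 8 libraries. Per the submitters' processing notes, the authors used Bowtie2, RSEM and the GRCm38 genome. Versions, annotation release, filters and the strand setting are not given in the sources used here. Members were taken by symbol and their positions from the deposited table. Exon lengths and overlaps came from GENCODE M21, which holds 22041 of the 22075 identifiers. The deposited positions of Srebf2, Scd1, Scd2, Fads1, Fads2 and Abcg1 differ from GENCODE M21. For these genes and Tm7sf2 the recovered reads lay up to 0.403 to 0.494 from whole numbers, so that their exon lengths are uncertain. Their values with the length trend removed and the floor of Scd1 rest on these lengths. Depth was recovered from the steps of FPKM times exon length, where 93.5% to 94.6% of values of up to 100 reads lay within 0.02 of a whole number. The floor of 3 reads for the control libraries of Scd1 is a single set value and not an interval.

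Tests used log2(FPKM + 1), a pseudocount of 1, for 11877 genes with at least 1 FPKM in at least 2 libraries. In R 4.3.3, limma 3.58.1 fitted a mean per group to the 8 libraries together (eBayes with trend, 4 residual degrees of freedom). Its standard errors and p-values also borrow the spread of other genes (median prior degrees of freedom 4.46). Benjamini-Hochberg adjustment ran over the tested genes of each of 5 two-sided comparisons, and calls were made at 0.05. The procedure was run on simulated data in which all genes had the same spread beyond counting noise and no trend with exon length. Those settings differ from these data, so that the run does not bear on single calls. Every member is reported, and of each other list up to 3 called genes of smallest p per comparison that average at least 5 FPKM in a compared group. Of the genes this rule names, 1 is not reported here. The members and lists were chosen with earlier results of these data known. Alternatives were a pseudocount of 0.1, no filter, median-of-ratios rescaling, a replicate block, 4 libraries alone, each library left out and, chosen after seeing the data, removal of an exon length trend. Replicates numbered alike did not deviate together. Promoter windows came from the RefSeq table, and shared sequence was counted in windows of 50 bases of GENCODE M21 transcripts. Tables and figures used matplotlib 3.10.9, pandas 2.3.3, numpy 2.4.6 and Python 3.11.15.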

Additional observations from a re-analysis of the deposited data

Results flagged for a closer look

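For 9 of the 32 tested genes the IL-33 response differed between the genotypes by a test of the difference itself, the interaction term of limma, and each was lower in STAT3-KO than in WT cells on log2(FPKM + 1). In the sterol arm this was Sc5d (-1.07, limma adjusted p = 0.00335). In SREBP control these were Insig1 (-1.96, limma adjusted p = 0.000327) and Srebf2 (-0.87, limma adjusted p = 0.0262). In the fatty acid arm these were Scd2 (-2.98, limma adjusted p = 0.0158), Fads2 (-1.60, limma adjusted p = 0.0178), Fads1 (-1.39, limma adjusted p = 0.00982), Fasn (-1.33, limma adjusted p = 0.00785), Acly (-1.08, limma adjusted p = 0.0489) and Scd1 (-1.04, limma adjusted p = 0.049). Scd1 passed the filter on low values through the WT libraries with IL-33 alone, so that its call carries no weight in a count, which leaves 8 genes. Fads2 among them passed it through the IL-33 libraries of both genotypes alone, and its value depends on the pseudocount. With a pseudocount of 0.1 the difference was -0.77 for Fads2 (limma adjusted p = 0.359) and -1.10 for Acly (limma adjusted p = 0.0586), so that both calls were lost. By the same test 6.72% of all tested genes were higher and 8.43% lower in STAT3-KO. The calls of Insig1, Sc5d and Fasn were kept in all 8 fits that each left out 1 library, that of Fads1 in 7, those of Fads2, Scd2, Acly and Srebf2 in 4, 3, 2 and 2, and that of Scd1 in 0.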

How the results depend on the processing

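Of the 61 calls made for the 34 genes over the 5 comparisons, 3 were lost and 0 gained with a pseudocount of 0.1, 13 lost and 1 gained without the filter, 2 lost and 8 gained with median-of-ratios rescaling, and 1 lost, 1 reversed and 11 gained with the exon length trend removed. With the 4 libraries of a comparison alone 7 of 52 were lost and 2 gained. Leaving out 1 library lost 4 to 14. The reversed value was the fall of Fasn with IL-33 in STAT3-KO (0.0487 with the length trend removed, cause not tested). Fatty acid genes called with IL-33 in STAT3-KO numbered 2 without the filter and 3 with 4 libraries alone (5 in all), and those with differing responses 3 with a pseudocount of 0.1 and 3 without the filter (6 in all). Over all genes, STAT3-KO against WT in control gave 34 calls with a pseudocount of 0.1 and 0 with 4 libraries alone (55 in all), and differing responses 1149 without the filter, which tests 22075 genes (1799 in all). Without 1 library, sterol calls ranged from 5 to 10 (IL-33 in WT), 6 to 9 (IL-33 in STAT3-KO), 4 to 8 (between genotypes with IL-33) and 1 to 1 (differing responses), fatty acid calls from 4 to 4, 2 to 5, 6 to 6 and 2 to 5 in that order, with 0 to 0 in control for both, and calls over all genes from 2550 to 4301, 4238 to 6220, 2117 to 4013 and 764 to 1993, with 1 to 35 in control. Same-numbered libraries share a number alone: their deviations correlated at -0.062 to 0.045. With that number as a replicate block 3 calls were lost and 3 gained, and 11 sterol and 4 fatty acid genes were called with IL-33 in WT. Depth limits Scd1, listed at 0 in all control libraries.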

Other observations

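LXR, the receptor of oxysterols, drives cholesterol export genes such as Abca1 and Abcg1 together with its partner RXR. Of 10 LXR factors and targets, 8 were tested, of which 1 rose and 4 fell with IL-33 in WT cells and 2 rose and 4 fell in STAT3-KO cells. Over all tested genes 14.5% rose and 21.6% fell in WT, and 20.4% rose and 30.6% fell in STAT3-KO, so that the counts of rises lie near the background. With IL-33, 1 was higher and 3 lower in STAT3-KO than in WT cells (16.3% and 16.4% over all tested genes). In control cells limma called 0 (Arl4c alone, lower, at an unadjusted p under 0.05). The responses differed for 3, of which 1 was higher and 2 lower in STAT3-KO (6.72% and 8.43% over all tested genes). Rxra, the RXR partner, averaged 15.3 ± 2.26 FPKM in STAT3-KO cells with IL-33, 0.763 ± 0.0509 in WT cells with IL-33, 2.38 ± 0.111 in STAT3-KO control cells and 2.82 ± 0.0273 in WT control cells (SD, n = 2 each). Its responses differed by 3.38 ± 0.25 (limma adjusted p = 0.000279). Arl4c, a small GTPase known as an LXR target, averaged 3.66, 15.2, 9.14 and 11.96 FPKM in the same order of groups, and its responses differed by -1.44 ± 0.21 (limma adjusted p = 0.00409). Lpcat3, which puts polyunsaturated chains into phospholipids, averaged 109.8 and 179 FPKM in STAT3-KO and WT cells with IL-33, against 74.9 and 85.02 FPKM in STAT3-KO and WT control cells, and its responses differed by -0.52 ± 0.13 (limma adjusted p = 0.034). Smpdl3a, an LXR target in human macrophages, fell with IL-33 in STAT3-KO (-2.39 ± 0.14, limma adjusted p = 6.53e-06) and in WT (-1.70 ± 0.14, limma adjusted p = 6.3e-05). Mylip, which degrades lipoprotein receptors, fell in STAT3-KO (-2.35 ± 0.35, limma adjusted p = 0.000843) and in WT (-1.73 ± 0.35, limma adjusted p = 0.00589).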
